A study of Homo sapiens with 21 samples.

Results

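The genes METTL3, METTL14, METTL16, KIAA1429, ZC3H13, FTO, YTHDC2, YTHDF2, YTHDF3 and HNRNPA2B1 write, erase or read N6-methyladenosine (m6A) on RNA, and here they are followed as hosts of circular RNAs (circRNAs). They were picked by gene name, with earlier results of these data known. That all 10 of these genes are among the 3809 host genes with circRNA reads is therefore not a result. Their 25 circRNAs, of 8714 in all, held 106 of 45285 junction reads, which is 0.234%. The same names were matched in the m6A lists, where they held 75 of 14885 entries.

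All libraries came from FaDu, an established squamous carcinoma line of the hypopharynx. The knockdown groups, sh3-1 and sh3-2, carry the label of IGF2BP3 knockdown and are taken from their names to be different hairpins against that gene, which encodes an m6A reader. The controls, shCtr, are labelled WT with a blank control treatment. CircRNA-seq covered 3 libraries of each group, lettered A, B and C. MeRIP-seq, in which an antibody pulls down m6A-marked RNA fragments for comparison with input RNA, covered 12 libraries of sh3-2 and shCtr and none of sh3-1.

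The m6A writer is a nuclear complex in which METTL3 carries the catalytic site and METTL14 holds the RNA beside it. KIAA1429, also called VIRMA, is a large scaffold of that complex, and ZC3H13 helps to keep it in the nucleus. METTL16 is a separate methyltransferase that acts on U6 RNA and on the MAT2A transcript. FTO removes the methyl group. YTHDF2 carries marked RNA to decay, YTHDF3 is a related cytoplasmic reader, YTHDC2 is an RNA helicase with a YTH domain that is required in germ-cell meiosis, and HNRNPA2B1 is a nuclear RNA-binding protein proposed to read m6A. A circRNA forms when the end of a downstream exon is spliced back to the start of an upstream one, and only reads across that join were counted. One join is 1 point in the RNA, so junction reads do not grow with the length of the circle and say nothing of the linear mRNA or the protein.

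The libraries were shallow. They held 5023 to 5846 junction reads in sh3-1, 3775 to 4168 in sh3-2 and 5502 to 5818 in shCtr. Every listed circle had at least 2 reads in some library, so a circle of these hosts seen once was not listed, and a 0 does not show absence. Some libraries stood apart by the circles they shared. The pair sh3-1 A and B shared 360 circles found in no other library, the pair sh3-2 B and C shared 197, and the other 34 pairs shared 10 to 87. Of the member circles, 1 HNRNPA2B1 circle was confined to sh3-1 A and B and none to sh3-2 B and C. Circle reads offered little check of the cell type. Of 14 squamous markers 1 had a circle (EGFR, 0 per 1000 junction reads in every sh3-1 and sh3-2 library, 0 to 0.688 in shCtr), and TP63, KRT5 and KRT14 were at 0, as were all 7 fibroblast, 6 immune and 4 endothelial markers.

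The class and size of the circles are given beside those of all circRNAs, without a test. Of the 25, 20 were exonic (80.0%, against 69.9% of all circRNAs), 4 were sense overlapping (16.0%, against 17.5%) and 1 was intronic (4%, against 12.0%). For the 18 exonic circles of several exons the listed length leaves introns out, and for the 4 sense overlapping ones it is the whole span. Of the 25, 18 (72.0%) carried a circBase ID, against 56.0% of all, and 14 (56.0%) were found in 1 library, against 62.0%. The median was 3 reads per circle in both sets, and 17 of the 25 had 2 or 3 reads. Exonic member circles were 258 to 3377 bases long, with a median of 550.5 bases against 589 over all exonic circles. For 2 of the 20 exonic circles, those of YTHDF2 and YTHDF3, the listed length equals the genomic span and is over 1500 bases; of all exonic circles 0.919% had both features.

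Splice ends were reused within hosts. In 7 of the 10 hosts, 2 circles joined at the same genomic position. The donor was shared in FTO (chr16, hg19, 53922863), METTL16 (chr17, 2367502), YTHDF2 (chr1, 29070498) and YTHDF3 (chr8, 64100303). The acceptor was shared in METTL3 (chr14, 21972024), KIAA1429 (chr8, 95556170) and YTHDC2 (chr5, 112889464). ZC3H13 and HNRNPA2B1, with 2 circles each, had no shared end, and METTL14, with 1 circle, could have none. The same count over all hosts is not given here, so whether sharing is more frequent in these hosts was not tested.

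**Figure D1:**
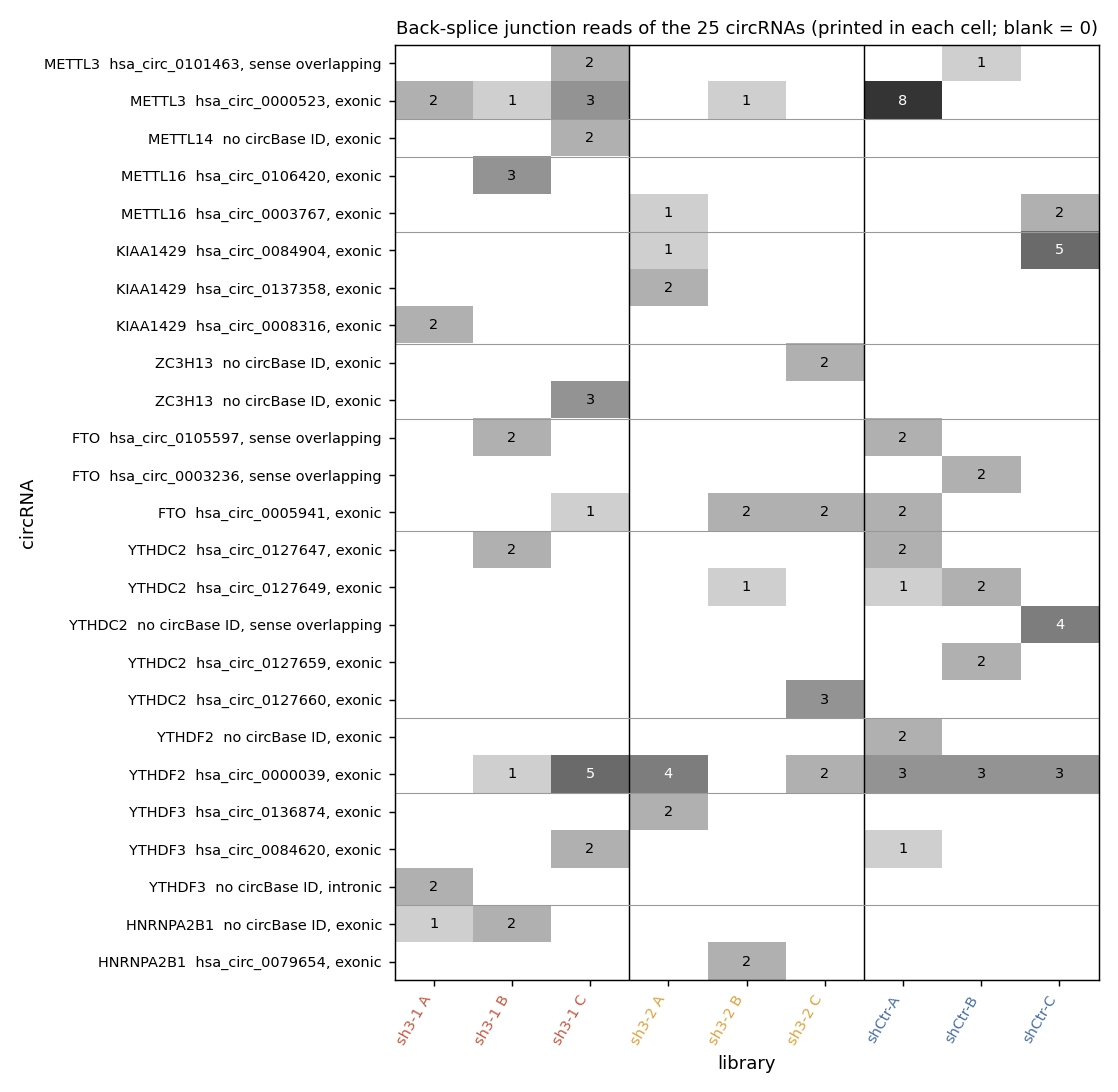
Back-splice junction reads of the 25 circRNAs of the 10 hosts (rows, with circBase ID and class) in the 9 circRNA-seq libraries (columns); the number in a cell is the read count and blank cells are 0. hsa_circ_0000039 of YTHDF2 has reads in 7 libraries and hsa_circ_0000523 of METTL3 in 5, while 14 circles have reads in 1 library.

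Among the writers, METTL3 had the most circle reads and the widest spread. Its host total was 2, 1 and 5 reads in sh3-1 A, B and C, 0, 1 and 0 in sh3-2, and 8, 1 and 0 in shCtr. The highest and a zero value both lay in the controls, which spanned both knockdown groups, and sh3-2 B lay above sh3-1 B per 1000 junction reads, so the groups overlapped in every comparison. Per 1000 junction reads the host averaged 0.481 ± 0.358 in sh3-1 and 0.0883 ± 0.153 in sh3-2, against 0.545 ± 0.793 in shCtr (SD, n = 3 each). Most of these reads, 83.3%, came from hsa_circ_0000523, an exonic circle of 623 bases (chr14:21971316-21972024, minus strand). That circle had 2, 1 and 3 reads in sh3-1, 0, 1 and 0 in sh3-2, and 8, 0 and 0 in shCtr. All its control reads thus came from library A.

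The other subunits of the METTL3 complex were seen in few libraries. METTL14 had 1 circle, chr4:119621705-119626976 on the plus strand, with 2 reads in sh3-1 C and 0 in the other 8 libraries. ZC3H13 had 3 reads in sh3-1 C, 2 in sh3-2 C and 0 in all controls. Its 2 circles did not share a library: the more counted, chr13:46616299-46619648 on the minus strand, gave the sh3-1 reads.

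KIAA1429 had 2 reads in sh3-1 A, 3 in sh3-2 A and 5 in shCtr C, and 0 in the other 6 libraries. Its leading circle, hsa_circ_0084904 (chr8:95518728-95524317, minus strand, 1346 bases), gave the 5 control reads and 1 read in sh3-2 A. The other 2 circles shared an acceptor and were each seen in 1 library. METTL16, the separate methyltransferase, had 3 reads in sh3-1 B, 1 in sh3-2 A and 2 in shCtr C. Its circles of 259 and 400 bases shared a donor and had 3 reads each; the shorter, hsa_circ_0106420 (chr17:2367502-2371170, minus strand), was seen in sh3-1 B alone. Summed over the 5 writers, 0.684 to 1.74 reads per 1000 were found in sh3-1 and 0.265 to 1.03 in sh3-2, against 0.180 to 1.45 in shCtr, and these ranges overlap.

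The demethylase FTO had 0, 2 and 1 reads in sh3-1, 0, 2 and 2 in sh3-2, and 4, 2 and 0 in shCtr. Each group had a library at 0, and the groups overlapped. Per 1000 junction reads FTO averaged 0.172 ± 0.171 in sh3-1 and 0.337 ± 0.293 in sh3-2, against 0.362 ± 0.364 in shCtr (SD, n = 3 each). Its leading circle was hsa_circ_0005941 (chr16:53907698-53922863, plus strand), in which 344 bases of exon remain of a 15166-base span. This circle had 0, 0 and 1 reads in sh3-1, 0, 2 and 2 in sh3-2, and 2, 0 and 0 in shCtr, so it gave all FTO reads of sh3-2. The other 2 FTO circles are sense overlapping and were not seen in sh3-2.

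YTHDF2 led the readers and all 10 hosts, with 23 reads and rank 401 of 3809 hosts. It had 0, 1 and 5 reads in sh3-1, 4, 0 and 2 in sh3-2, and 5, 3 and 3 in shCtr. All 3 control libraries had YTHDF2 reads and each knockdown group had a library at 0, but the highest knockdown libraries reached the control range. Per 1000 junction reads it averaged 0.348 ± 0.462 in sh3-1 and 0.505 ± 0.517 in sh3-2, against 0.655 ± 0.220 in shCtr (SD, n = 3 each). Of these reads, 91.3% belonged to hsa_circ_0000039 (chr1:29068915-29070498, plus strand, 1584 bases), the member circle found in the most libraries. Its counts were 0, 1 and 5 in sh3-1, 4, 0 and 2 in sh3-2, and 3, 3 and 3 in shCtr.

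The paralog YTHDF3 had fewer reads, 2, 0 and 2 in sh3-1, 2, 0 and 0 in sh3-2, and 1, 0 and 0 in shCtr. Its leading circle, hsa_circ_0084620 (chr8:64098706-64100303, plus strand), is 1598 bases long with no intron removed, as in the leading YTHDF2 circle. It had 2 reads in sh3-1 C and 1 in shCtr A.

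YTHDC2 had 5 circles, the most of any member. The host had 0, 2 and 0 reads in sh3-1, 0, 1 and 3 in sh3-2, and 3, 4 and 4 in shCtr. Every sh3-1 library lay below every control, while sh3-2 C reached the control range. Per 1000 junction reads it averaged 0.114 ± 0.198 in sh3-1 and 0.328 ± 0.364 in sh3-2, against 0.651 ± 0.0931 in shCtr (SD, n = 3 each). The exact two-sided permutation p for sh3-1 against shCtr was 0.1, the smallest that 3 against 3 libraries can give. Any full separation of 3 against 3 gives that value, so it adds nothing to the separation itself. The same test was run, unadjusted, for every member with reads in each comparison, and no other p was as small. The 4 reads of shCtr C all came from 1 sense overlapping circle spanning 57811 bases (chr5:112871437-112929247, plus strand). With exonic circles alone, the YTHDC2 reads were 0, 2 and 0 in sh3-1 and 3, 4 and 0 in shCtr, and the groups overlapped; the mean difference was -0.308 reads per 1000, against -0.537 with all circles. Of the exonic circles, hsa_circ_0127647 (chr5:112868576-112878200, plus strand) and hsa_circ_0127649 (chr5:112870002-112874878, plus strand) had 4 reads each. The first had 2 reads in sh3-1 B and 2 in shCtr A, and the second had 1 read in sh3-2 B, 1 in shCtr A and 2 in shCtr B.

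HNRNPA2B1 had 1, 2 and 0 reads in sh3-1, 0, 2 and 0 in sh3-2, and 0 in all 3 controls. Its reads in sh3-1 belonged to a 783-base circle (chr7:26232115-26236637, minus strand) and those in sh3-2 to hsa_circ_0079654. The first is the circle confined to sh3-1 A and B, the pair of libraries that shared 360 circles, and the part of that sharing in its counts was not tested. Without those libraries it has no reads.

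**Figure D2:**
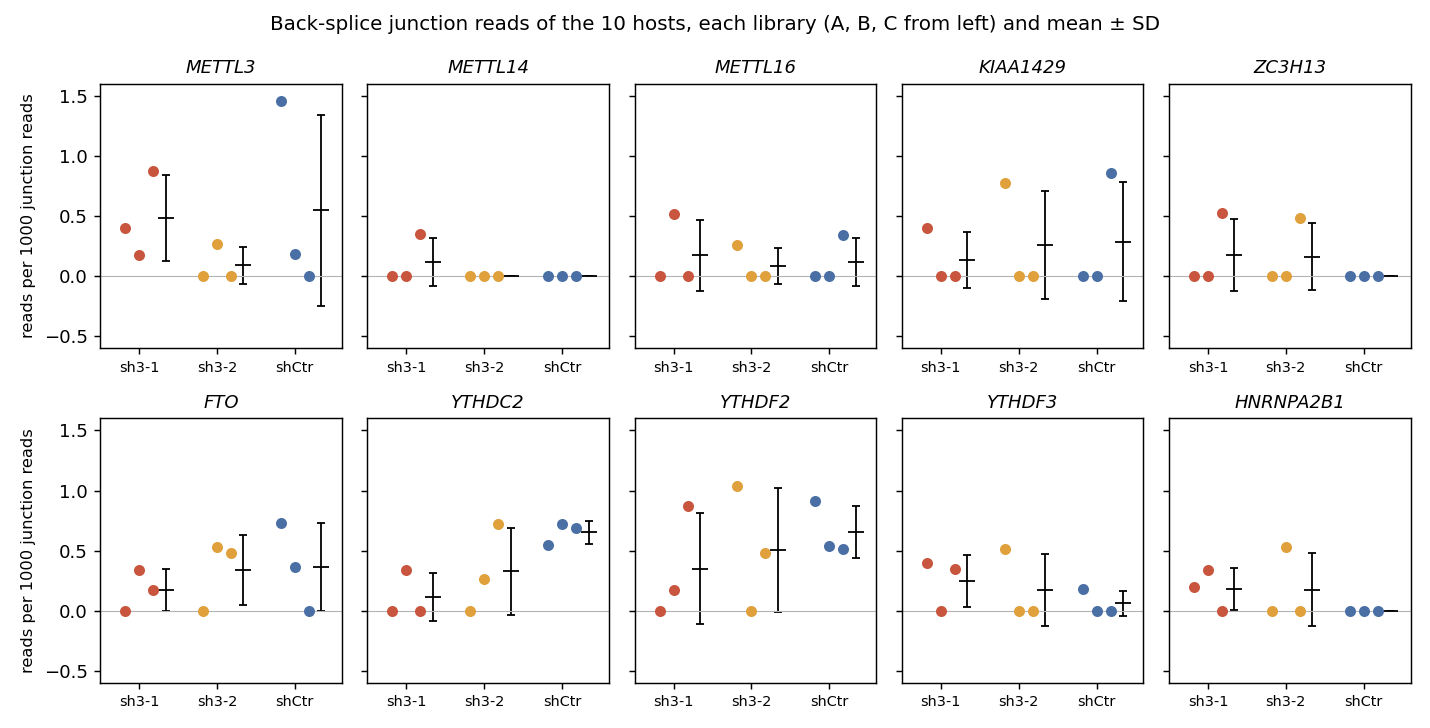
Back-splice junction reads per 1000 junction reads of the library (y axis) for each of the 10 hosts; points are the libraries A, B and C of sh3-1, sh3-2 and shCtr from left to right, and the black bar is the group mean ± SD (n = 3). YTHDC2 is the host in which all 3 sh3-1 points lie under all 3 shCtr points; in the other panels the groups overlap or meet at 0.

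Over all 10 hosts, the libraries held 1.39, 1.88 and 3.14 member reads per 1000 in sh3-1, 2.58, 1.59 and 2.16 in sh3-2, and 3.82, 1.80 and 2.41 in shCtr. The group means were 2.14 ± 0.901 in sh3-1 and 2.11 ± 0.499 in sh3-2, against 2.67 ± 1.03 in shCtr (SD, n = 3 each). The ranges overlap, and the lowest value of all is sh3-1 A. The order of the means was not stable: with exonic circles in both terms they were 2.20 in sh3-1 and 2.74 in sh3-2, against 2.69 in shCtr, and without shCtr A the control mean was 2.10, below both knockdown means. Circles of all 10 hosts were seen in sh3-1, of 9 in sh3-2 and of 7 in shCtr, the hosts missing in the controls being METTL14, ZC3H13 and HNRNPA2B1. In bulk RNA, fewer cells that make a circle and less of it per cell cannot be told apart.

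No host of the 10 passed the filter on low counts that precedes the count test. After edgeR's filter on low counts, 82 hosts were tested for sh3-1 against shCtr, 58 for sh3-2 against shCtr and 56 for sh3-2 against sh3-1, and none was a member. Both hairpin comparisons share the 3 controls. By edgeR's quasi-likelihood test with Benjamini-Hochberg adjustment, the background of called hosts was 0% for sh3-1 against shCtr, 0% for sh3-2 against shCtr and 1.79% for sh3-2 against sh3-1, the 1 call being SPECC1. At an unadjusted p under 0.05 there were 6, 5 and 5 hosts, and DESeq2 called 0 in each comparison. Per circRNA, 33 and 24 circles were tested in the hairpin comparisons, 0 were called by edgeR or DESeq2, and edgeR gave 2 and 1 at an unadjusted p under 0.05.

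Without the filter, the hosts entered the edgeR fits but stayed far from the threshold. There, 10 of 10 members were tested in sh3-1 against shCtr, 9 of 10 in sh3-2 against shCtr and 10 of 10 in sh3-2 against sh3-1, and 0 were below an unadjusted p of 0.05. Over all hosts in those fits 54 of 3354, 62 of 3204 and 57 of 3061 were below it and 0 were called. In sh3-1 against shCtr the smallest unadjusted member p by edgeR was 0.216, for YTHDC2 (log2 fold change -2.35, SE 1.898). In sh3-2 against shCtr it was 0.201 by edgeR, for METTL3 (-2.62, SE 2.05). For sh3-2 against sh3-1 it was 0.285 by edgeR, again for METTL3 (-2.44, SE 2.28). The adjusted p-values by edgeR were 0.477, 0.520 and 0.505. Other members shared each of these, and each was the smallest over all hosts in its fit, so they single out no gene. These standard errors leave a range from a large fall to a rise for each.

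YTHDC2 was the 1 member of 10 whose sh3-1 libraries all lay below the controls, where 2.59% of all 3354 hosts with reads did so; 0 of 10 lay above, against 2.06%. For sh3-2 against shCtr 0 of 9 members were separated either way, against 2.72% of hosts below and 2.25% above. For sh3-2 against sh3-1 0 of 10 were separated, against 2.71% of hosts below and 2.12% above. For any host, separation requires reads in every library of the higher group. Among the members this held for YTHDC2 and YTHDF2 in shCtr, for METTL3 in sh3-1 and for none in sh3-2. The other members could not be separated at these counts, so the zeros say nothing of them. In the authors' deposited table, 20 of the 25 member circles were listed for sh3-1 and 19 for sh3-2. In each, 0 had an authors' p under 0.05, where the background was 1.03% of circRNAs for sh3-1 and 0.677% for sh3-2.

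Of 27 further writers, erasers, readers and genes of methyl donor supply, 13 had circle reads. None of the 27 passed the filter on low counts, so none entered the count test as reported. Without the filter, none was called. LRPPRC, named after its values were seen, held the most of them, with 12 circles and 50 reads, above every member. No circle was listed for the second eraser, ALKBH5, for the writer subunits WTAP, RBM15 and CBLL1, or for the readers YTHDC1 and YTHDF1. IGF2BP3, the gene knocked down, had 5, 1 and 0 circle reads in sh3-1, 3, 6 and 0 in sh3-2, and 6, 2 and 0 in shCtr. Each group had library C at 0 and the groups overlapped; circle reads at this depth do not check the knockdown, and no linear RNA level was analysed here.

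m6A was listed on circles of all 10 hosts, which is likewise not a result, since they were chosen with earlier results known. An entry in the authors' deposited table is a site with a fold of at least 1, its direction in sh3-2 relative to shCtr, a p and an FDR. The sheets do not state whether the fold is corrected for input, so a difference in m6A and one in the amount of RNA cannot be told apart in any fold given here. No value per library was analysed here, so no error over replicates can be given. ZC3H13 had 30 of the 75 entries, YTHDF2 14, KIAA1429 9, YTHDC2 and HNRNPA2B1 6 each, METTL3 3, FTO, YTHDF3 and METTL14 2 each, and METTL16 1. Many overlap: the 75 entries occupy 70 distinct sites and 43 separate regions. At 4 places 9 entries share the same coordinates, and each of these places is listed both as higher and as lower. Directions are thus counted over entries, not over separate sites. By the authors' deposited directions 41 were higher and 34 lower in sh3-2, with a median log2 fold of 0.02, against -0.01 over all entries. The median size of the fold, whichever way, was 1.06 for the members and 1.15 for all. In 1 of the 75 (1.33%) the fold was at least 2, against 8.99% of all entries.

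In the authors' deposited table, 6 of the 75 member entries were below an FDR of 0.05, as were 1340 of all 14885. Of the 75, 4 (5.33%) passed as higher in sh3-2, where the background was 4.47% of all entries, and 2 (2.67%) passed as lower, where it was 4.53%. Both shares rest on a few entries and lie near the background. The 6 entries lay in 3 writers, ZC3H13, KIAA1429 and METTL3, and none lay in the eraser or in a reader. The roles held unequal numbers of entries. The eraser FTO had 2 and the readers 14 (YTHDF2), 6 (YTHDC2), 6 (HNRNPA2B1) and 2 (YTHDF3), while ZC3H13 alone had 30. A difference between roles was not tested, and the share that passed lies near the background.

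ZC3H13 held 3 of the 4 higher entries, and all 3 were listed for 1 antisense circle, chr13:46559432-46594692 on the plus strand, opposite to the gene. The entries at 46576982 to 46577740, 46585282 to 46585960 and 46594302 to 46594692 were 1.31-fold, 1.26-fold and 1.35-fold higher in sh3-2 than in shCtr in the authors' deposited table, with FDR values of 1.42e-07, 0.00184 and 7.93e-05. The other 11 entries of that circle did not pass and included the largest lower fold of any member, 1.73-fold lower in sh3-2. The circle was absent from the circRNA sheets, so no junction reads are listed for it in any library. The libraries were made with a directional kit, per the labels' protocols. No source used here says how reads were assigned to a strand when the entries were made. Marks on the ZC3H13 transcript and on an antisense RNA therefore cannot be told apart here. Antisense entries were rare: the whole table held 56, of which these are 14, and 6 of the 56 passed, of which these are 3. On the 2 minus-strand circles of ZC3H13, 0 of 16 entries passed, and the smallest p in the authors' deposited table was 0.0230.

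KIAA1429 held 2 entries past the threshold that overlap and point in opposite ways. The entry at chr8:95541298-95541480 was 1.04-fold higher in sh3-2 than in shCtr (FDR 2.27e-07) and that at chr8:95541302-95541500 was 1.02-fold lower (FDR 2.63e-07), in the authors' deposited table. They share 179 bases. Over the whole table, 7 pairs of entries past the threshold overlapped in opposite directions, 1 of them with both folds below 1.1, and that is this pair. Folds below 1.1 were found in 1.57% of all 1340 entries that passed. The circle they are listed for, hsa_circ_0137358 (chr8:95538451-95556170), had 2 junction reads, both in sh3-2 A.

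METTL3 held the 1 other lower entry, at chr14:21971262-21971700, which was 1.23-fold lower in sh3-2 than in shCtr in the authors' deposited table (FDR 0.00830). All 3 METTL3 entries were lower. They were listed for the 5583-base sense overlapping circle hsa_circ_0101463, which had 2 reads in sh3-1 C, 1 in shCtr B and none in sh3-2. The entry reaches below the lower genomic end of the commoner METTL3 circle, hsa_circ_0000523, and so lies partly outside it. On the minus strand that end is the donor side of the circle.

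In the remaining hosts no entry passed the FDR. The smallest authors' p was 0.0624 in YTHDF2 (1.26-fold higher in sh3-2), 0.119 in METTL14 (1.17-fold higher) and 0.120 in FTO (2.25-fold higher, the largest fold of any member). It was 0.132 in YTHDF3 (1.22-fold higher), 0.213 in YTHDC2 (1.34-fold lower), 0.482 in HNRNPA2B1 (1.103-fold lower) and 0.887 in METTL16 (1.01-fold lower), all in the authors' deposited table. The FTO entry, at chr16:53914022-53914300, lies inside the span of hsa_circ_0005941 but was listed for the longer sense overlapping circle.

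**Figure D3:**
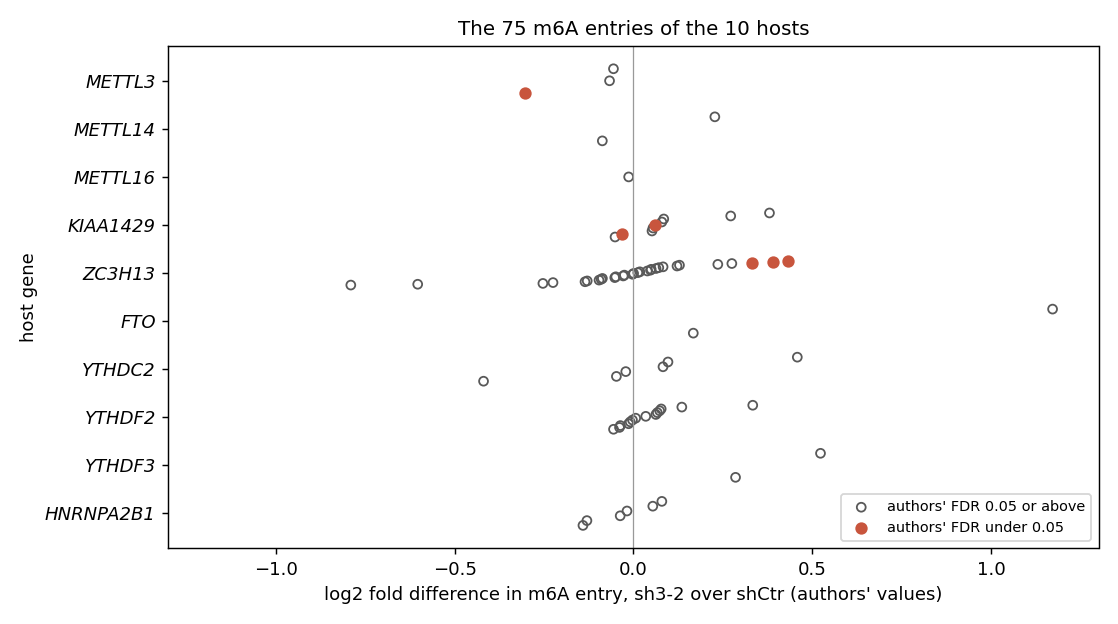
Authors' log2 fold of each of the 75 m6A entries (x axis, sh3-2 over shCtr, so positive is higher in sh3-2) by host gene (y axis); filled points passed the authors' FDR of 0.05. The 6 filled points lie in METTL3, KIAA1429 and ZC3H13, and the farthest point to the right is an FTO entry that did not pass.

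Each entry was listed for 1 circle, and often not for the circle with the most junction reads. Of the 25 member circles, 13 had entries listed for them and 21 had entries inside their span. All 14 YTHDF2 entries were listed for chr1:29064170-29070498, which had 2 reads, in shCtr A; 9 of them lie within hsa_circ_0000039, which had 21 reads and no entry of its own. Those 9 were within 1.06-fold either way in the authors' deposited table. The linear exons hold the same bases, so a mark on the circle and one on the linear RNA cannot be told apart inside the span. Of the 14 circles with member entries, 13 (92.9%) were in the circRNA sheets, against 86.9% of circles in the whole m6A table. Some of the 13 had junction reads in sh3-1 alone, which had no MeRIP-seq. They were the METTL14 circle, hsa_circ_0106420 of METTL16, chr13:46616299-46619648 of ZC3H13 and chr7:26232115-26236637 of HNRNPA2B1. All entries of METTL14 and METTL16 were listed for such circles. The same share over all circles is not given here. Entries reaching a circle end made up 22.7% of the members' and 23.4% of all.

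**Figure D4:**
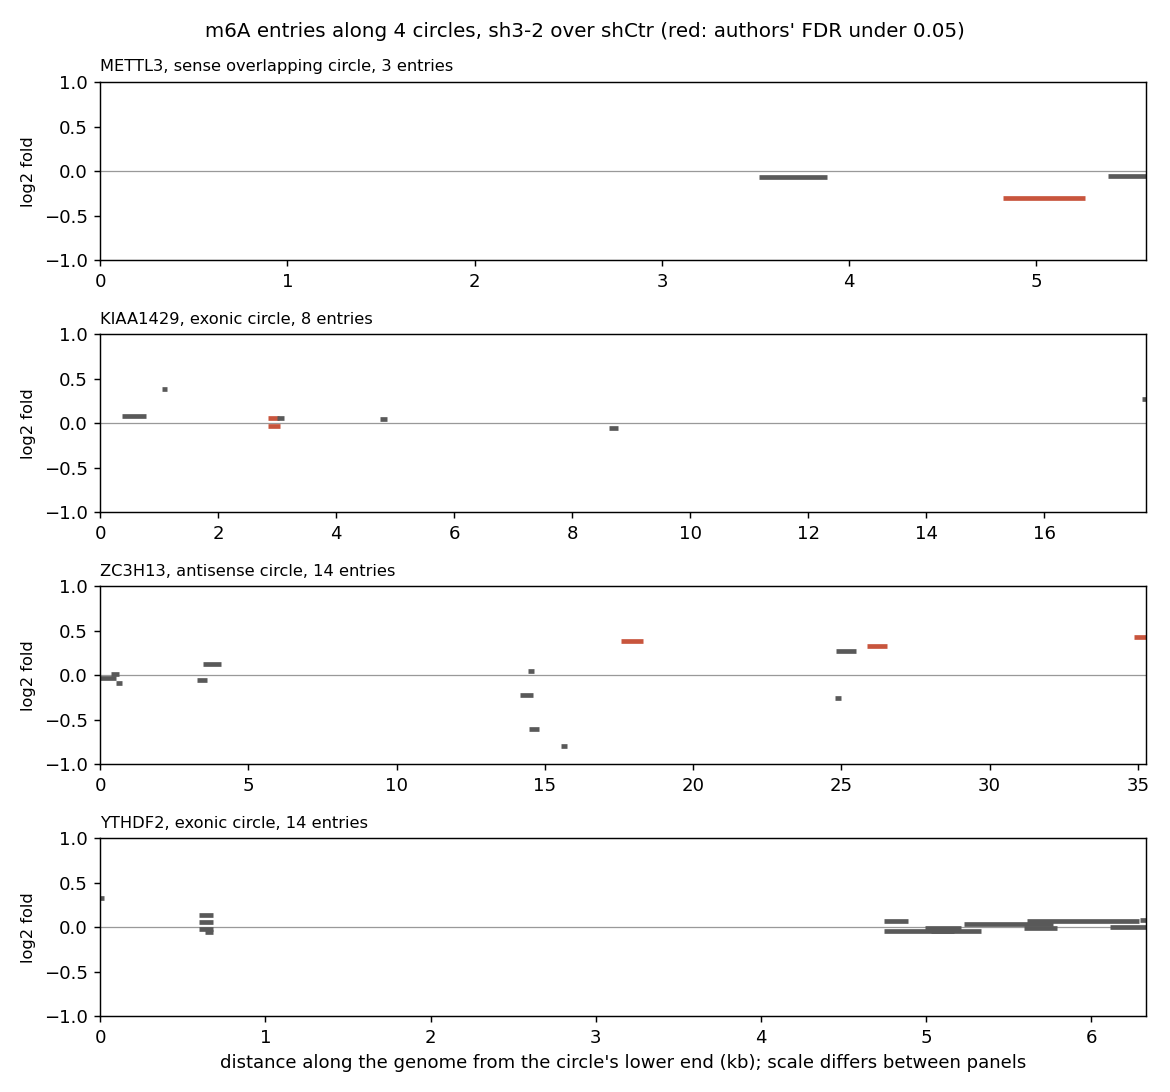
m6A entries along the METTL3, KIAA1429, ZC3H13 (antisense) and YTHDF2 circles for which they are listed, as bars from start to end (x axis, kb from the lower genomic end, a scale of its own in each panel) at their authors' log2 fold (y axis, sh3-2 over shCtr); red bars passed the authors' FDR of 0.05. The red bars of KIAA1429 overlap on both sides of 0, and those of ZC3H13 all lie above it.

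For the pathway list, 6 of 27 genes held 38 m6A entries, with a median log2 fold of -0.04. Those past the authors' FDR, 1 higher and 3 lower of the 38, were all in IGF2BP3, which held 23 of the entries. Over all entries, 4.47% passed as higher and 4.53% as lower. In the authors' deposited table the lower ones were 1.63-fold (FDR 0.0440), 2.58-fold (1.33e-07) and 2.82-fold (1.42e-07) lower in sh3-2 than in shCtr. The higher one was 4.82-fold higher, with an FDR of 0.0393, so this entry and the 1.63-fold one lay just under the threshold.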

How the data were processed

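The deposited sheets were used as the authors made them. Per the file headers, each circRNA has a raw count of back-splice reads per library, with the authors' log2 fold change and mean log2 CPM and their p-value. For m6A sites, the authors deposited a fold (ratio), a p-value with FDR, and a score equal to −log10 of the p-value. The build hg19 and the tools edgeR 3.16.5, STAR 2.5.1b and cutadapt 1.9.3 are listed in the submitters' processing notes; no source used here names the circRNA or peak caller. Libraries were depleted of ribosomal RNA, made with a directional kit and read as 150-base pairs, per the labels' protocols. The 24 columns of log2 CPM per library were not used.

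Counts were joined over both comparisons. A circle missing from a hairpin's sheets was given 0 reads there. The authors' mean log2 CPM was then met within 0.186 in the sh3-1 sheets and within 0.164 in the sh3-2 sheets. The median difference of 0.0134 was taken over circles in both sheets, where no 0 was filled in. Reads were summed per host and tested with edgeR 4.0.16 (robust glmQLFit, TMM, filterByExpr defaults, two-sided, Benjamini-Hochberg, FDR under 0.05), after a test on simulated data; rows without a host, 0.0930% of reads, were left out of host sums. Reads per 1000 are over all junction reads of a library. DESeq2 1.42.0, R 4.3.3, Python 3.11.15, pandas 2.3.3, numpy 2.4.6, scipy 1.17.1 and matplotlib 3.10.9 were also used. Nothing in the labels makes the replicates separate cultures, and a p-value reflects the scatter between libraries, which may be technical. Circles named are the leading one of each host and those in at least 4 libraries; entries named are those past the authors' FDR and the smallest p of each host. Other circles were named for the entries listed on them or after their values were seen. The members, lists and tests were chosen with earlier results of these data known. No sequence is printed, since no genome of the files' build was used here.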

Additional observations from a re-analysis of the deposited data

How the results depend on the processing

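No member host or member circle entered any filtered fit under any alternative run, so the alternatives bear on the background alone. For sh3-2 against shCtr, 1 host (MYH9) was called with DESeq2 size factors in edgeR, with library totals and no TMM, and with the replicate block, against 0 in the fit as reported. Leaving out a library gave 0 to 3 calls there: 1 without sh3-2 A, 1 without sh3-2 C and 3 without shCtr B. For sh3-2 against sh3-1, the 1 call (SPECC1) was lost (0 calls) with DESeq2 size factors, library totals, no filter, the DESeq2 Wald test, the replicate block, exonic circles only, and without any 1 library. The other host and circRNA counts stayed at 0. Whether the library letters pair the samples was not settled. Correlations of deviations between libraries of 1 letter ran from -0.41 to 0.239, over 56 to 82 hosts. Each deviation was taken from a mean of 3 libraries, so these values can neither show nor exclude a pairing. Requiring a fold of at least 2 left 0 higher and 0 lower m6A entries, and exonic circles only left 1 higher and 1 lower; an FDR of 0.01 and counting each site once left 4 and 2. With exonic circles in both terms, member reads were 2.20 per 1000 in sh3-1 and 2.74 in sh3-2, against 2.69 in shCtr, so sh3-2 lay above the controls and not below them as reported (2.11 against 2.67); leaving out a library gave means of 1.64 to 2.51 in sh3-1, 1.87 to 2.37 in sh3-2 and 2.10 to 3.11 in shCtr. The YTHDC2 difference with exonic circles alone (-0.308 per 1000, against -0.537) was added after seeing the data, and the causes of these moves were not tested. Depth limits these values: the libraries held 3775 to 5846 junction reads, and the members 2 to 23 reads each over all 9 libraries.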
